A study of Mus musculus with 13 samples.

Results

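Aerocyte-like cells, the capillary endothelial cells of the mouse lung with RNA of Ednrb and, in all but 11 of them, of Car4, were picked from a matrix of single-cell counts by a rule on UMIs, the unique molecular identifiers that each mark 1 captured RNA molecule. A cell entered with at least 2 UMIs of Cdh5, at least 2 UMIs summed over Car4 and Ednrb of which at least 1 was Ednrb, 0 UMIs summed over Vwf, Prox1, Col1a1, Ptprc and Marco, and at most 10% of its UMIs from mitochondrial genes. The rule found 262 cells among the 20856 barcodes of libraries 1, 2, 3 and 7 that met the mitochondrial limit, out of 24344 barcodes in these libraries and 37344 in the whole matrix. The single-cell groups carry the titles Asthma, PPE-emphysema, PPE-recovery and Control. PPE stands for porcine pancreatic elastase, and the study's methods give whole lung cells of 1 mouse for each. The asthma mouse was sensitized and challenged with ovalbumin, the PPE-emphysema mouse had repeated weekly elastase in the airway, the PPE-recovery mouse had a single instillation followed by a longer rest, and the control followed the schedule of the emphysema group. All were C57BL/6 mice with no age stated, and the other 9 labelled samples (Acute injury, Con and emphysema) were not analysed here. Barcodes carry a library number and no group, so no library could be tied to a treatment, no comparison between treatments was made. The matrix counted as 1 sample, and no test was run between the classes of cells either, since the rule that chose them used the same counts.

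Gas exchange in the alveolus takes place across a capillary bed made of a pair of endothelial cell types. Aerocytes are large, thin cells spread over the alveolar surface that face the flat alveolar type 1 cells, and they are known for Car4, a carbonic anhydrase anchored to the cell surface that speeds the exchange of carbon dioxide and bicarbonate, and for Ednrb, the endothelin receptor type B, which also clears endothelin from blood. General capillary cells carry Gpihbp1, Plvap, Aplnr and Kit, divide after injury and can give rise to aerocytes.

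The aerocyte-like cells numbered 18 in library 1, 144 in library 2, 80 in library 3 and 20 in library 7, and libraries 4, 5 and 6, with at most 1 cell of 2 or more Cdh5 UMIs each, held 0. Values by library are given below in the order 1, 2, 3 and 7. Their UMIs summed to 162711, 1181443, 643174 and 200657, with medians of 8206, 6902.5, 6756 and 8953 UMIs per cell. They were set against 565 other capillary cells, which met the same rule with 0 UMIs of Car4 and Ednrb (75, 322, 137 and 31 cells). These were shallower, with medians of 4012, 3756, 3319 and 4807 UMIs, and a count of 0 is reached more easily in a shallow cell. No barcode sequence of an aerocyte-like cell was also a barcode of another of the 4 libraries, although 64 of the 24280 barcode sequences were shared among them. Expression is given as UMIs per 1000000 UMIs of a class in a library (CPM), averaged over the 4 libraries with equal weight. A gene was called higher or lower where this mean differed at least 2-fold and the direction was the same in each library with at least 20 cells of both classes, which leaves library 1 out of the direction. Intervals are exact at 95%, and they cover counting error only and not the spread between mice.

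Genes of other cells were high in some libraries, partly through single cells. The other capillary cells of library 2 had 46143 CPM of Scgb1a1, the club cell secretory protein, and aerocyte-like cells of library 3 had 11342 CPM, against 203, 620 and 64.8 CPM in the aerocyte-like cells of libraries 1, 2 and 7. In library 3, 1 of the 80 aerocyte-like cells held 6794 of the 7295 UMIs of Scgb1a1, and the level without it was 807 CPM. In library 2, 1 of the 322 other capillary cells held 64.7% of them, and the level without it was 17265 CPM. Sftpc, the surfactant protein of alveolar type 2 cells, had 3352 CPM in the aerocyte-like cells of library 2 and 24.6, 104 and 39.9 CPM in the others, and 1 cell held 2348 of its 3960 UMIs in library 2. Immediate early genes also differed, since Fos had 98.3, 335, 505 and 4.98 CPM in aerocyte-like cells and 81.2, 354, 573 and 461 CPM in the other capillary cells. Of the other capillary cells with a UMI of the division marker Mki67, 9 of 12 came from library 1. The part of these differences in the results below was not tested, and calls that rest on 1 library are named with their value without it.

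Aerocyte-like cells made up 20.7% of the 1267 clean Cdh5 cells, those with at least 2 UMIs of Cdh5 and 0 of the 5 excluded genes (95% interval 18.5% to 23.02%). By library, the share was 9.05% (5.45% to 13.9%) in library 1, 21.5% (18.5% to 24.8%) in library 2, 25.4% (20.7% to 30.6%) in library 3 and 23.8% (15.2% to 34.3%) in library 7. Library 1 was the lowest, and its interval did not overlap those of the other libraries. After every cell had been thinned to 2000 UMIs, the shares were 6.40%, 14.4%, 20.6% and 15.5%, so library 1 stayed lowest, although its interval of 3.70% to 10.2% then overlapped that of library 7. Cells with at least 2 UMIs of Car4 and 0 of Ednrb, called Car4-only cells here, were instead most frequent in library 1, with 33.7% of clean Cdh5 cells there and 13.2%, 13.3% and 19.0% in libraries 2, 3 and 7. Of the 312 cells that the 5 excluded genes kept out, 213 had a UMI of Vwf and 94 of Ptprc, so the share also depends on how often those genes are picked up.

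**Figure D1:**
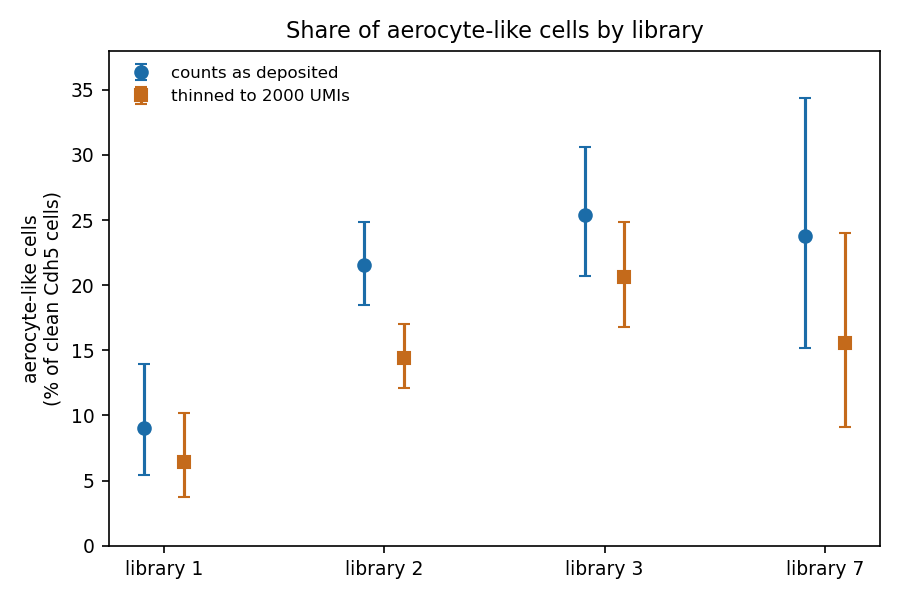
Share of aerocyte-like cells among clean Cdh5 cells (y axis, percent) in each library (x axis), with the counts as deposited (circles) and after thinning to 2000 UMIs per cell (squares). Bars are exact 95% binomial intervals for counting error. Library 1 is lowest, with 9.05% as deposited and 6.40% after thinning.

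The genes of the rule are given as a description. The 262 cells had a median of 20 UMIs of Cdh5 (2 to 75), 14 of Car4 (0 to 59) and 6 of Ednrb (1 to 41). Just inside the limits lay 10 cells with exactly 2 UMIs of Cdh5, 43 with 1 UMI of Ednrb and 16 whose Car4 and Ednrb summed to 2. Just outside lay 9 cells with 1 UMI of Cdh5, 227 with 1 UMI summed over Car4 and Ednrb, and the 213 Car4-only cells. Car4 (chromosome 11, 84957786 to 84966044 in GRCm38) had 1426, 1917, 1821 and 1949 CPM by library. Ednrb (chromosome 14, 103814625 to 103844402) had 713, 907, 1228 and 947 CPM.

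The label was set beside 15 further aerocyte markers, of which 12 were higher than in other capillary cells, 0 were lower and 3 were neither. The list was chosen with earlier results of these data known, so these counts describe the cells and are not an independent check. Across all 8700 genes tested, 429 (4.93%) were called higher and 415 (4.77%) lower, 844 (9.70%) together. The median log2 ratio was 2.22 over the markers and -0.00 over all genes. Fibin, a secreted protein first known from fin buds, had 350, 778, 875 and 498 CPM in aerocyte-like cells and 5.60, 9.07, 8.43 and 0 CPM in the other capillary cells, a ratio of 108 from library means and 96.3 from summed UMIs (61.5 to 160). Tbx2, a T-box transcription factor, had 320, 599, 554 and 837 CPM against 8.40, 27.9, 40.0 and 11.2 CPM and was 26.4-fold higher. Chst1, a sulfotransferase of keratan sulfate, had 209, 321, 299 and 468 CPM, and its 699 UMIs in aerocyte-like cells stood against 7 in the other capillary cells, all in library 2. For each of these 3 genes the lowest library of the aerocyte-like cells lay above the highest of the other class. The ratio of Chst1 depends on those 7 UMIs, being 266 from library means, 170 without library 7 and 112 from summed UMIs (53.8 to 278), and without library 2 the other class has 0 UMIs.

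Markers with higher levels in both classes separated them less sharply. Igfbp7, a secreted binding protein of the vessel wall, had 2501, 4136, 3773 and 3344 CPM against 238, 432, 202 and 691 CPM, an 8.79-fold difference. Prx, a PDZ protein of junctions and of peripheral nerve, was 4.65-fold higher and Cyp4b1, a lung cytochrome P450, 3.78-fold. Icam2, an adhesion molecule for leukocyte integrins, was 2.35-fold higher and Tmcc2 2.73-fold. Emcn, a sialomucin (514 and 520 CPM), Sparc, a matrix glycoprotein (828 and 1468 CPM) and the lectin Clec1a (858 and 717 CPM) were called in neither direction, with the aerocyte-like value first.

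**Figure D2:**
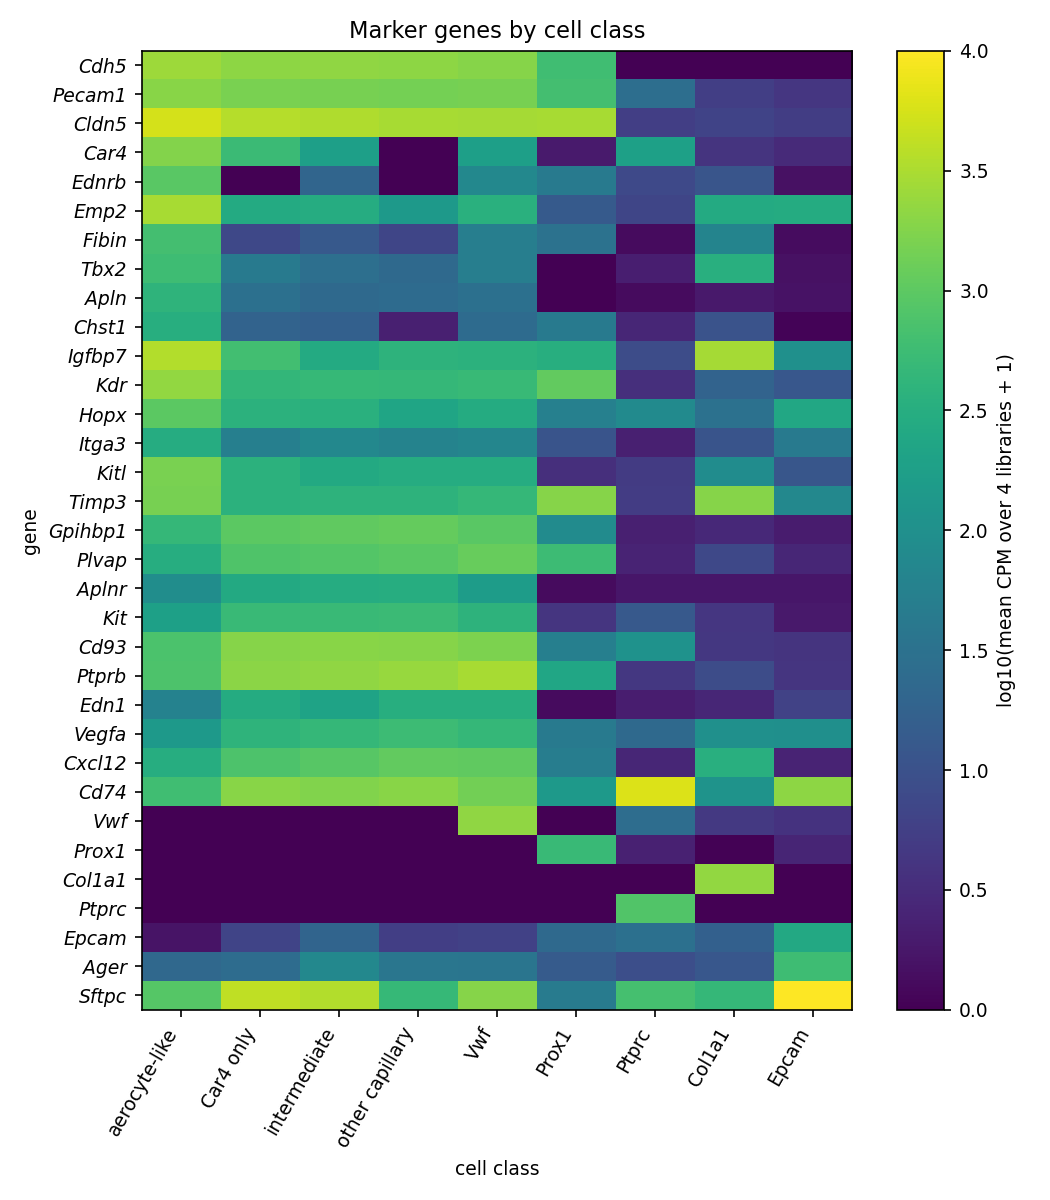
Mean CPM over the 4 libraries, as log10(CPM + 1), of marker genes (rows) in 9 classes of cells (columns). Cdh5, Car4, Ednrb, Vwf, Prox1, Col1a1 and Ptprc helped to set the classes. Fibin, Tbx2, Apln and Chst1 are bright in the aerocyte-like column, with means between 324 and 625 CPM, and are at most 41.2 CPM in the Car4-only and other capillary columns.

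Pan-endothelial genes differed less than 2-fold for the most part, but their sum was higher in aerocyte-like cells. With Cdh5 included, the list summed to 23237.5, 22674, 23541 and 22596 CPM against 17869.5, 15577, 19557 and 16975 CPM. Of 15 tested beside Cdh5, 1 was higher and 0 were lower, with a median log2 ratio of 0.14. Pecam1, an adhesion protein of endothelial junctions, had 1923 CPM in aerocyte-like and 1475 in other capillary cells, and the tight junction protein Cldn5 had 5471 and 3016 CPM. The one gene called was Cd34, a surface sialomucin, with 1229, 936, 832 and 1370 CPM against 605, 384, 369 and 630 CPM.

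General capillary markers were lower as a list but were not absent. Of 12 tested, 9 were lower and 0 higher, with a median log2 ratio of -1.58. Gpihbp1, which carries lipoprotein lipase across capillary cells, had 602, 487, 625 and 135 CPM in aerocyte-like cells and 795, 1088, 1477 and 1242 CPM in the other capillary cells, a 2.49-fold difference. Plvap, the diaphragm protein of fenestrae and caveolae, had 307, 283, 490 and 140 CPM against 890, 712, 1642 and 556 CPM and was 3.12-fold lower. Every library of the aerocyte-like cells lay below every library of the other class for both genes. The receptors Ptprb (3.104-fold), Cd93 (2.50-fold) and Tek (3.25-fold) were also lower, as was the adhesion molecule Cadm1 (3.88-fold). Lpl, lipoprotein lipase, was 3.35-fold lower but 1.78-fold without library 7, which ends its call. Among cells of 2000 to 10000 UMIs only, in both classes, Plvap, Ptprb and Cd93 were 5.33-fold, 5.52-fold and 4.56-fold lower. Here and below, this window also changes which aerocyte-like cells are compared. Those with 8 or more UMIs summed over Gpihbp1, Plvap, Aplnr and Kit had a median depth of 11134 UMIs, above the window. Those with none of these UMIs had a median of 6231. Sema3c, Hpgd and Tmem100 were called in neither direction.

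The general capillary RNA was spread unevenly over the aerocyte-like cells. Summed over Gpihbp1, Plvap, Aplnr and Kit, 88 cells had 0 UMIs, 80 had 1 to 7 and 94 had 8 or more, with no gap between them, so these are ranges cut after the values were seen and not types. Median depths were 6231, 6990 and 11134 UMIs per cell, against 3757 in the other capillary cells. Ptprb and Cd93, which did not enter the sum, followed it, with means of 0.330 and 0.0795 UMIs per cell in the 88 cells, 15.9 and 13.4 in the 94 cells, and 10.1 and 7.07 in other capillary cells. Emp2, Igfbp7 and Kdr, which were high in aerocyte-like cells, changed less in these means. Emp2 had means of 29.3, 27.9 and 21.9 UMIs per cell over the ranges of 0, 1 to 7 and 8 or more, Igfbp7 had 33.8, 34.7 and 28.1, and Kdr had 19.3, 20.1 and 17.3, against 0.733, 1.64 and 1.82 in other capillary cells. The medians fell further, from 27.5 in the 88 cells to 17 in the 94 cells for Emp2, from 34 to 21 for Igfbp7 and from 18 to 15 for Kdr. After thinning to 2000 UMIs, other aerocyte markers were seen in fewer of the 94 cells than of the 81 deep enough of the 88, Fibin in 36.2% against 82.7%, Tbx2 in 38.3% against 79.0% and Apln in 23.4% against 48.1%. Scrublet, which scores barcodes likely to hold 2 cells, marked 3 of the 262 cells, of which 0, 2 and 1 lay in the ranges of 0, 1 to 7 and 8 or more UMIs. It marked 3.49% of all barcodes within the mitochondrial limit. Whether some of these barcodes held 2 cells was not tested further.

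**Figure D3:**
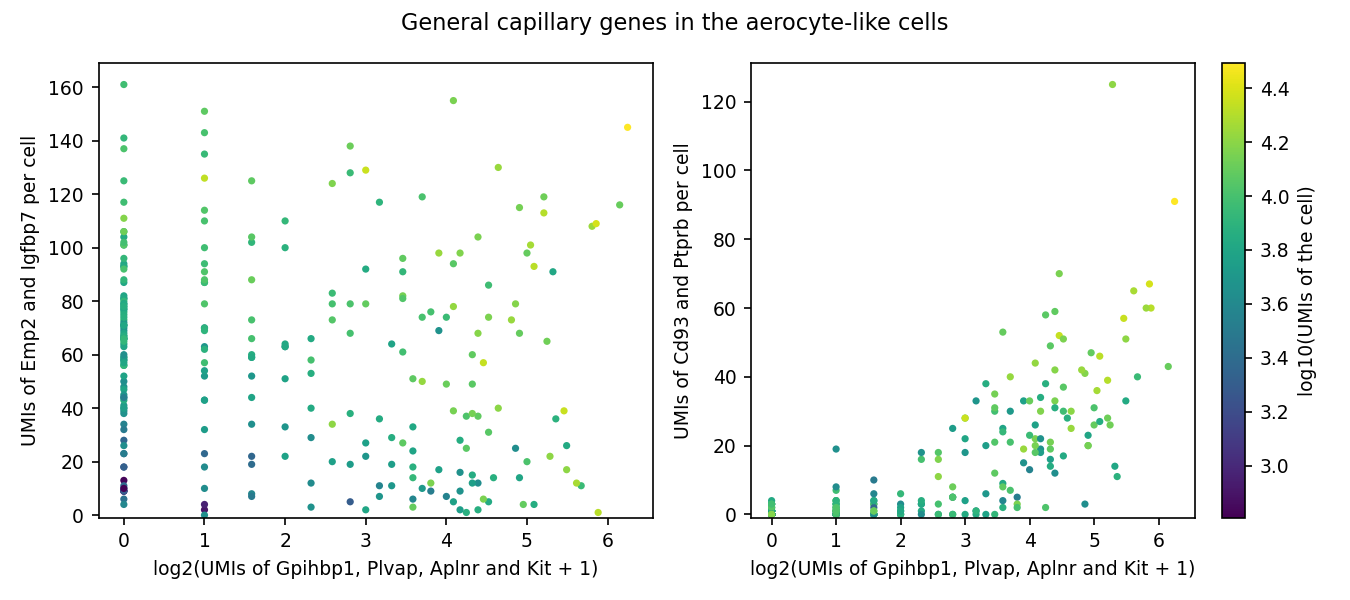
Each point is 1 of the 262 aerocyte-like cells, placed by its summed UMIs of Gpihbp1, Plvap, Aplnr and Kit (x axis, log2 of the sum + 1) and by its UMIs of Emp2 and Igfbp7 (left y axis) or of Cd93 and Ptprb (right y axis), coloured by the log10 of the cell's UMIs. Cells with 0 on the x axis lie at or near 0 for Cd93 and Ptprb, whereas Emp2 and Igfbp7 are spread over the whole x axis.

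Among the 88 cells without UMIs of the 4 genes, more genes were called in both directions. The direction rested there on libraries 2 and 3, the only ones with 20 of these cells, whereas libraries 2, 3 and 7 set it for the 262 cells. With the direction of the 262 cells also taken from libraries 2 and 3, 441 genes were higher and 438 lower. The 4 genes themselves are at 0 in the 88 cells by choice, so their part in any count is fixed. Of 8587 genes tested for the 88 cells, 736 (8.57%) were higher and 1047 (12.2%) lower than in other capillary cells, 1783 (20.8%) together. Library 1 gives 4 of the 88 cells, where 3 counts equal 151 CPM, and without it 823 were higher and 960 lower. Summed over libraries, Emp2 had 4946 CPM in the 88 cells, 1955 in the 94 cells with 8 or more UMIs and 169 in other capillary cells. Ptprb went the other way, with 55.6, 1425 and 2333 CPM, and so did Cd93, with 13.4, 1198 and 1636 CPM. Sparc, listed as an aerocyte marker, was lower in the 88 cells, with 353 CPM against 1316 in other capillary cells. Of the pan-endothelial genes above, 3 of 15 were higher and 1 lower in the 88 cells, against 1 and 0 in the 262 cells. Counts of the lists below are also given for the 88 cells where a count moved by more than 1.5 times or from 0 to 2 or more. They stand beside the shares over all genes, 4.93% higher and 4.77% lower for the 262 cells and 8.57% and 12.2% for the 88 cells. A larger count in the 88 cells is therefore not read as a shift of that list.

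The genes of 4 ligand and receptor pairs, chosen with earlier results of these data known, were followed by library. Apln, the ligand apelin (chromosome X, 48025146 to 48034853), had 651, 348, 344 and 234 CPM in aerocyte-like cells and 0, 45.3, 29.5 and 22.5 CPM in the other capillary cells, with no overlap. It was 16.2-fold higher from library means, 9.51-fold without library 1 and 10.6-fold from summed UMIs (8.41 to 13.4). Its receptor gene Aplnr was 3.38-fold lower, with 129, 56.7, 131 and 49.8 CPM against 297, 244, 443 and 253 CPM. Kitl, which encodes stem cell factor (chromosome 10, 100015630 to 100100416), had 1745, 1425, 1239 and 1849 CPM against 333, 232, 356 and 259 CPM and was 5.31-fold higher. Kit, its receptor, had 307, 141, 149 and 145 CPM against 593, 456, 605 and 472 CPM and was 2.87-fold lower, or 6.30-fold among cells of 2000 to 10000 UMIs. In both pairs the ligand was the higher and the receptor the lower of the pair in aerocyte-like cells, and in each of the 4 libraries.

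In the VEGF pair the ligand was the lower and the main receptor the higher in aerocyte-like cells. In the endothelin pair the receptor, Ednrb, is a gene of the rule, so only the ligand can be compared. Edn1, endothelin, the peptide that Ednrb binds, had 55.3, 71.1, 79.3 and 29.9 CPM in aerocyte-like cells and 118, 307, 238 and 635 CPM in other capillary cells, a 5.51-fold lower mean that was 3.22-fold lower without library 7 and 9.98-fold among cells of 2000 to 10000 UMIs. Vegfa, the vascular endothelial growth factor, had 178, 132, 143 and 99.7 CPM against 605, 416, 630 and 551 CPM and was 3.98-fold lower, or 6.90-fold among cells of 2000 to 10000 UMIs. Kdr, its main signalling receptor (chromosome 5, 75932827 to 75978458), had 1770, 2209, 2337 and 2641 CPM against 504, 367, 489 and 506 CPM and was 4.80-fold higher. Nrp1, a co-receptor for VEGF and semaphorins, was 2.58-fold higher, whereas Flt1, which binds VEGF as a decoy, had 778 and 856 CPM and was called in neither direction. Edn1 had 0 UMIs in the 88 cells without the 4 genes and Vegfa 7.67 CPM, against 134 and 247 CPM in the 94 cells with 8 or more UMIs. Over the 16 tested genes of the VEGF and angiopoietin list, 4 were higher and 5 lower (median log2 ratio -0.64), among them Unc5b, a receptor for netrins, 4.14-fold higher, and the angiopoietin gene Angpt2, 2.69-fold lower. Not every pair was split, since Angpt2 and its receptor gene Tek (3.25-fold) were both lower, as were Cxcl12 (3.56-fold) and its receptor gene Cxcr4 (7.37-fold).

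**Figure D4:**
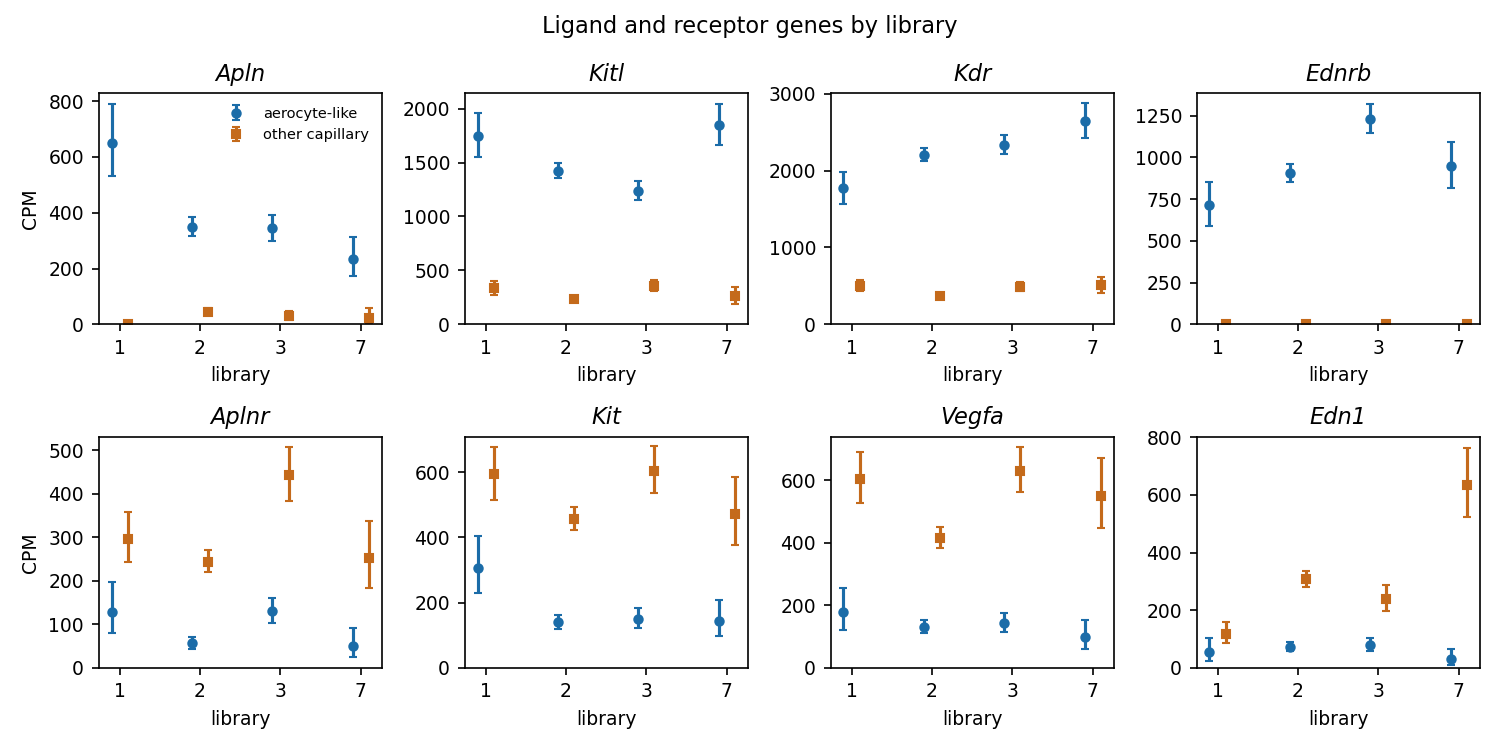
CPM (y axes) by library (x axes) of 4 ligand and receptor pairs, Apln with Aplnr, Kitl with Kit, Vegfa with Kdr and Edn1 with Ednrb, in aerocyte-like cells (circles) and other capillary cells (squares). Bars are exact 95% Poisson intervals. Apln, Kitl and Kdr are higher in the aerocyte-like cells of all 4 libraries and Aplnr, Kit, Vegfa and Edn1 lower, and Ednrb is 0 in the other class by the rule.

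The share of cells with a UMI showed the same order for these genes after thinning to 2000 UMIs, a depth that 252 of 262 aerocyte-like and 471 of 565 other capillary cells reached. Kitl was seen in 88.1% of aerocyte-like and 41.4% of other capillary cells, and Kdr in 94.0% and 54.6%. Apln was seen in 42.9% and 2.12%, Tbx2 in 67.1% and 3.40%, and Emp2 in 90.9% and 18.5%. Aplnr was seen in 7.54% and 39.5%, and Vegfa in 16.3% and 59.0%. Cells with Ptprc, the leukocyte antigen CD45, were set beside them for the level that free RNA can give, although leukocytes may also express some of these genes, with 0.66% for Kitl, 0.48% for Kdr, 0.15% for Apln, 0.37% for Tbx2, 0.84% for Emp2, 0.16% for Aplnr and 4.74% for Vegfa. Their median depth was 8798 UMIs before thinning, against 7094.5 in aerocyte-like and 3757 in other capillary cells. Scgb1a1, in contrast, was seen in 69.4% of aerocyte-like, 78.3% of other capillary and 52.5% of Ptprc cells.

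Genes best known from alveolar type 1 cells were prominent in aerocyte-like cells. Emp2, a tetraspan protein that binds integrins and caveolin (chromosome 16, 10281749 to 10313968), had 2464, 3310, 2935 and 3309 CPM against 56.0, 176, 280 and 50.6 CPM. It was 21.4-fold higher, or 32.2-fold without library 3. Hopx, a homeodomain protein without DNA binding, had 971, 1033, 1241 and 683 CPM against 305, 192, 322 and 84.3 CPM and was 4.35-fold higher. Clic5, a chloride channel protein, had 1016 and 634 CPM and was not called. Of the 6 tested genes of that list, 2 were higher and 0 lower (median log2 ratio 0.34). The genes of the list that define alveolar type 1 cells stayed low. Ager, the receptor for advanced glycation end products, had 21.4 CPM in aerocyte-like and 35.7 in other capillary cells, and Aqp5, Pdpn and Rtkn2 had 2.33, 4.44 and 0.989 CPM. The list summed to 4407, 5383, 5095 and 5392 CPM by library in aerocyte-like cells and to 812, 1174, 1264 and 1158 CPM in the other class, with Emp2 as its most abundant gene in the first and Clic5 in the second.

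Integrin genes were called in both directions. Of 8 tested, 2 were higher and 3 lower (median log2 ratio -0.17). Itga3, which pairs into a laminin receptor, had 332, 251, 264 and 344 CPM against 70.0, 42.6, 84.3 and 45.0 CPM and was 4.93-fold higher. Itgb5, the partner of the alpha v subunit, had 129, 163, 211 and 164 CPM against 5.60, 10.5, 12.6 and 0 CPM and was 23.3-fold higher. Itga1, a collagen receptor subunit, Itga5, of the fibronectin receptor, and Itga6, of another laminin receptor, were 2.30-fold, 3.75-fold and 3.19-fold lower. Itga1 was still the most abundant integrin gene of the list in both classes, with 746 and 1716 CPM. The common subunit Itgb1 had 607 and 590 CPM.

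Basement membrane and matrix genes were divided, with 3 of 18 higher and 5 lower (median log2 ratio -0.67), and 3 and 9 among the 88 cells. Timp3, an inhibitor of metalloproteinases bound to the matrix, had 1389, 1347, 955 and 2402 CPM against 252, 384, 226 and 663 CPM and was 3.99-fold higher. Timp2 was 2.75-fold higher. Col18a1, the source of endostatin, was 13.5-fold higher from library means and 6.61-fold without library 7, where it had 219 CPM against 24.6, 33.9 and 6.22 CPM in libraries 1, 2 and 3. Sparcl1, a matrix glycoprotein, and the laminin gene Lama5 were 3.51-fold and 2.62-fold lower, and Eln, elastin, was 2.46-fold lower with 68.7 and 169 CPM. Col15a1 (3.06-fold lower, 1.79-fold without library 7) and Lamb1 (3.13-fold and 1.20-fold) rested on library 7. Col4a1 and Col4a2, the main collagens of basement membrane, were called in neither direction. In the list of cathepsins and inhibitors, 2 of 18 were higher and 2 lower (median log2 ratio -0.04), or 4 and 3 of 17 in the 88 cells. The higher genes were Timp2 and Timp3, and the lower ones were the proteases Adamts1 (4.03-fold) and Mmp14 (2.41-fold). Ctsl, the cathepsin the study is about, had 441 CPM in aerocyte-like and 264 in other capillary cells and was not called, and it had 357 CPM in Ptprc cells and 746 in Col1a1 cells.

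RNA of the MHC class II genes, which present antigen, was lower. All 7 tested were called lower (median log2 ratio -1.73). Cd74, the invariant chain, had 719, 791, 446 and 394 CPM against 1458, 2693, 1345 and 2327 CPM, a 3.33-fold difference that was 6.74-fold among cells of 2000 to 10000 UMIs. H2-Ab1 (chromosome 17, 34257689 to 34269419) had 227, 349, 285 and 84.7 CPM against 607, 1167, 691 and 753 CPM and was 3.40-fold lower, and Ciita, which switches the class II genes on, was 3.34-fold lower. The aerocyte-like libraries all lay below those of the other class for these 3 genes. In the 88 cells Cd74 had 61.4 CPM and in the 94 cells 1123 CPM. Of the 12 MHC class I genes, 1 was lower and 0 higher (median log2 ratio -0.22), and that gene, H2-Q7, belongs to a family of close copies between which reads may be misassigned. Among the 88 cells, 2 of 12 class I genes were lower, where 12.2% of all genes were lower. Of 20 interferon-stimulated genes, 4 were lower and 0 higher (median log2 ratio -0.45), namely Iigp1 (4.73-fold), Gbp2 (2.59-fold), Gbp4 (2.50-fold) and Ifitm3 (2.21-fold).

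RNA of genes for leukocyte adhesion and of chemokines was called in both directions. In the list of leukocyte adhesion, 4 of 10 were higher and 2 lower (median log2 ratio 0.29). Icam1, a ligand of leukocyte integrins, had 443, 432, 521 and 329 CPM against 171, 112, 228 and 33.7 CPM and was 3.17-fold higher, beside Icam2 and Cd34. Cx3cl1, the membrane-bound chemokine fractalkine, was 3.23-fold higher with 92.8 and 28.7 CPM. Cxcl12, the chemokine that holds Cxcr4-bearing cells, was 3.56-fold lower, with 344, 337, 227 and 314 CPM against 456, 1493, 512 and 1894 CPM, and Ackr3, which scavenges it, was 2.59-fold lower. Over the 9 tested chemokines and cytokines, 2 were higher (Cx3cl1 and Kitl) and 2 lower (Cxcl12 and Csf1), with a median log2 ratio of 0.20. Among guidance genes, 5 of 19 were higher and 1 lower (median log2 ratio -0.30), and 6 and 7 among the 88 cells. Sema7a was 3.18-fold higher, Sema3f 2.13-fold and the netrin Ntn4 3.60-fold, and Sema3g was 3.25-fold lower with 0 UMIs in the 88 cells.

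Of 31 endothelial transcription factor genes, 3 were higher and 7 lower (median log2 ratio -0.36). Beside Tbx2, the higher genes were its relative Tbx3, with 670, 769, 735 and 1146 CPM against 355, 278, 268 and 489 CPM (2.39-fold), and the homeobox gene Meox1, with 67.6, 165, 135 and 154 CPM against 14.0, 28.6, 10.5 and 33.7 CPM (6.01-fold). The arterial factor Sox17 was 2.52-fold lower, with 159 and 400 CPM, and the forkhead genes Foxp1 and Foxo1 were 2.15-fold and 2.22-fold lower. Gata6 (4.16-fold), Gata3 (3.23-fold), Mecom (4.14-fold, 2.57-fold without library 7) and Peg3 (4.09-fold, 2.50-fold without library 7) were lower, at means of at most 50.6 CPM in both classes. Erg and Fli1, factors of all endothelium, were called in neither direction. Of the Notch genes, 3 of 12 were lower and 0 higher (median log2 ratio -0.12), the ligands Jag1 (3.14-fold) and Dll1 (2.01-fold) and the target Hey1 (2.64-fold). Of the BMP and TGF-beta genes, 2 of 16 were lower and 0 higher (median log2 ratio 0.08), the ligands Bmp4 (5.16-fold) and Bmp6 (2.48-fold), while the receptors Bmpr2 and Acvrl1 had 1472 and 1582 CPM against 1393 and 1114 CPM.

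The lists of this paragraph had at most 3 genes called in either direction among the 262 cells. Over all genes, 4.93% were higher and 4.77% lower in the 262 cells, and 8.57% and 12.2% in the 88 cells. Vasoactive genes had 3 of 16 lower and 0 higher (median log2 ratio -0.38), which beside Edn1 were the nitric oxide synthase Nos3 and the natriuretic peptide receptor Npr3, and 1 higher and 7 lower in the 88 cells. Junction genes had 2 of 14 lower (median log2 ratio 0.12), the connexin Gja4 (3.06-fold) and Jam2 (2.92-fold), and 4 lower and 1 higher in the 88 cells. Genes of caveolae and transport had 2 of 11 lower (median log2 ratio -0.07), Plvap and the efflux pump Abcb1a. Lipid uptake genes had 2 of 7 lower (median log2 ratio 0.04), Gpihbp1 and Lpl, and 5 of 7 in the 88 cells, of which Gpihbp1 by choice. Coagulation genes had 2 of 7 higher and 1 lower (median log2 ratio 0.02). Among them, the thrombin receptor F2r was 2.10-fold higher, and Entpd1, which breaks down extracellular ATP, 3.24-fold lower. Of 5 tested carbonic anhydrase and gas exchange genes beside Car4, 1 was lower, Car14 (2.23-fold, 3.50-fold without library 1), with a median log2 ratio of -0.19 (2 lower in the 88 cells), and the water channel Aqp1 had 1312 and 1495 CPM. Among 20 immediate early and heat shock genes, the small heat shock protein Hspb1 was the only one called, 4.47-fold higher with 443, 1126, 782 and 1670 CPM against 72.8, 287, 162 and 377 CPM (median log2 ratio of the list -0.05), and 3 were lower in the 88 cells.

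The 15 genes of largest ratio, which include the aerocyte markers Fibin, Chst1 and Rprml, were mostly near 0 in other capillary cells. Dpysl5, known from neurons, and the adhesion molecule Ncam1 had 101 and 110 UMIs in aerocyte-like cells and 0 in other capillary cells, at least 37.6-fold and 40.9-fold higher from summed UMIs against a floor of 3 counts over that class, and at least 14.4-fold and 15.7-fold without library 2. By library, Ncam1 had 43.0, 53.3, 28.0 and 110 CPM and Dpysl5 67.6, 49.1, 38.9 and 34.9 CPM. Tmeff2, a transmembrane protein with follistatin domains, had 241 UMIs against 5, and Egflam, the matrix protein pikachurin, 238 against 9. The aminopeptidase Xpnpep2 had 141 UMIs against 1, Rprml 257 against 4, Ccdc184 337 against 11, Rgs6, a regulator of G proteins, 127 against 5, and Tnxb, a tenascin, 134 against 4. Fndc1 had 105 UMIs against 2, Tex14 68 against 5, Gm30648 62 against 1 and Tekt5 38 against 1. With so few counts in the other class, the size of these ratios is set by single UMIs and is not given.

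**Figure D5:**
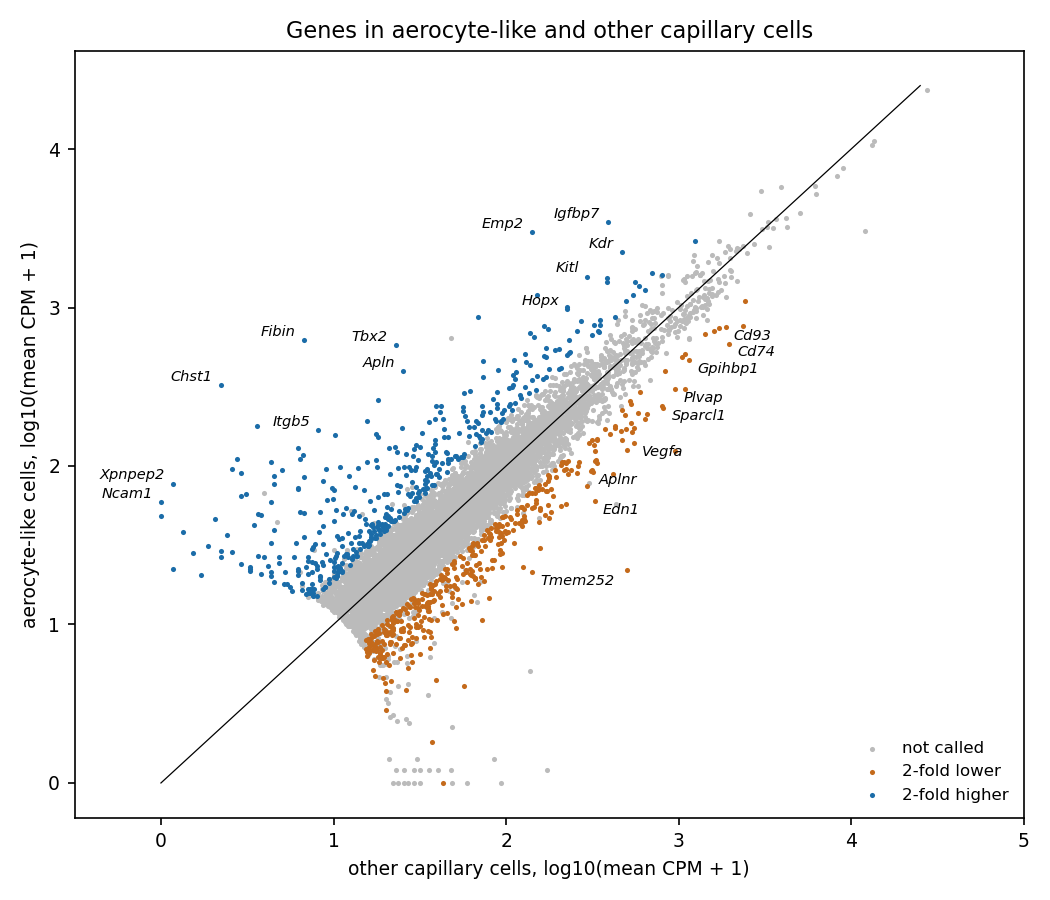
Mean CPM over the 4 libraries of each of the genes tested, as log10(CPM + 1), in other capillary cells (x axis) and aerocyte-like cells (y axis), with the line of equal levels. Of 8700 genes, 429 are called 2-fold higher and 415 2-fold lower. Named points such as Emp2, Fibin and Chst1 lie far above the line, and Edn1, Vegfa and Gpihbp1 below it.

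The 15 genes of smallest ratio included several that 1 library carried. Racgap1 and Cdc20, genes of cell division, were lower in a way that rested on library 1. Racgap1 had 0 UMIs in aerocyte-like cells and 63 in other capillary cells, at least 18.8-fold lower from summed UMIs against the floor, or at least 2.27-fold without library 1, and Cdc20 was 44.4-fold lower, 4.75-fold without library 1, 89.1-fold without library 2 and 82.7-fold without library 3. Scgb3a1, an airway secretoglobin, was 24.0-fold lower, 2.77-fold without library 2 and 84.0-fold without library 3, and Mal 18.2-fold and 3.05-fold without library 7. Cyp26b1, which breaks down retinoic acid, had 338, 55.9, 54.4 and 44.9 CPM against 1041, 231, 175 and 2350 CPM, 7.70-fold lower, or 3.23-fold without library 7 and 17.8-fold without library 1. Among cells of 2000 to 10000 UMIs it was 13.3-fold lower. Tmem252 had 30.7, 20.3, 20.2 and 9.97 CPM against 165, 111, 114 and 169 CPM (6.88-fold, or 16.8-fold among cells of 2000 to 10000 UMIs), and Pear1, a platelet and endothelial receptor, 6.15, 6.77, 10.9 and 9.97 CPM against 47.6, 49.5, 42.1 and 61.8 CPM (5.95-fold, or 17.0-fold in that window). Cxcr4, the receptor of Cxcl12, was 7.37-fold lower and 11.9-fold without library 3, with 9.65 and 71.1 CPM. Oas2, Nav2, Dnah2os, Myl4, Gramd1b and Loxl2 were between 5.83-fold and 10.9-fold lower, at 1.90 to 3.49 CPM in aerocyte-like cells. Leaving out a library took Nav2 to between 2.94-fold (library 1) and 19.8-fold (library 2), Loxl2 to between 3.67-fold (library 7) and 9.71-fold (library 2), and Dnah2os to between 6.86-fold (library 7) and 26.2-fold (library 2). Oas2 became 6.34-fold lower without library 7 and 6.51-fold without library 2, and Myl4 17.8-fold without library 3. Among cells of 2000 to 10000 UMIs, Dnah2os was 18.5-fold and Myl4 16.9-fold lower.

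Cells with at least 2 UMIs of Vwf, a gene best known from large vessels, were a further class to compare with. They also carried general capillary markers, which summed to a mean of 13536 CPM in them and 13146 in other capillary cells, with 937 CPM of Gpihbp1, while the large-vessel list summed to 5318 CPM, of which Vwf itself was 2180, so they are called Vwf cells and not a vessel type. Of 8709 genes tested, 361 (4.15%) were higher in aerocyte-like cells and 451 (5.18%) lower, 812 (9.32%) together. Both comparisons use the same aerocyte-like cells, so the calls of one bring no independent support to the other. Fibin, Tbx2, Apln, Emp2 and Kdr had 49.8, 49.6, 29.3, 350 and 501 CPM in Vwf cells, all below the aerocyte-like means. Of 15 aerocyte markers, 12 were higher (median log2 ratio 2.16), and of 12 general capillary markers, 8 were lower (median log2 ratio -1.10). Large-vessel genes were lower in 13 of 14 tested against Vwf cells (median log2 ratio -3.32) and in 4 of 7 tested against other capillary cells (median log2 ratio -1.41). Vwf cells were picked by a large-vessel gene. Genes of the list can have passed the minimum level through the class compared with alone, so these counts and medians are not read further.

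Car4-only cells had aerocyte markers at levels well below those of aerocyte-like cells. They had 523 CPM of Car4 and 0 of Ednrb by definition, and 282 CPM of Emp2, 6.43 of Fibin, 41.2 of Tbx2, 29.3 of Apln and 445 of Kdr, where aerocyte-like cells had 3005, 625, 577, 394 and 2239 CPM and other capillary cells 141, 5.77, 21.9, 24.3 and 466 CPM. Chst1, Igfbp7 and Hopx had 18.1, 608 and 371 CPM in Car4-only cells, against 1.22, 391 and 226 CPM in other capillary and 324, 3439 and 982 CPM in aerocyte-like cells. After thinning to 2000 UMIs, Chst1 was seen in 5.71% of Car4-only and 0.85% of other capillary cells, Emp2 in 31.0% and 18.5%, Igfbp7 in 39.0% and 25.1%, and Hopx in 47.1% and 31.4%, each higher in the Car4-only cells. Kdr was seen in 58.6% and 54.6%, Tbx2 in 5.71% and 3.40% and Apln in 4.76% and 2.12%, with overlapping intervals. Fibin went the other way, with 0.48% and 1.06%, also with overlapping intervals. These shares pool cells over the libraries, and their intervals leave out the spread between libraries. Before thinning, library 1 gave 67 of the 213 Car4-only cells and 75 of the 565 other capillary cells. The part of this unlike mix in the shares was not tested. Gpihbp1 and Plvap had 976 and 782 CPM in Car4-only cells, against 1151 and 950 CPM in other capillary cells. Their median depth was 5857 UMIs.

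Markers of other cells were at low levels in aerocyte-like cells, with the exceptions named. Of 8 tested leukocyte markers, 0 were higher and 1 lower, S100a8 (median log2 ratio -0.35), and the list summed to 209, 1188, 224 and 329 CPM against 260, 1503, 306 and 405 CPM, with Lyz2 as the most abundant gene in both classes and Ptprc, Marco and Itgam at 0 in aerocyte-like cells, the first 2 by the rule. Of 6 mesenchyme markers, 0 were called (median log2 ratio -0.18), and the sums were 98.3, 216, 331 and 14.95 CPM, led by Inmt, with Col1a1, by the rule, and Lum at 0. Of 7 alveolar type 2 and airway markers, 0 were called (median log2 ratio 0.70), although the sums of 252, 5161, 11720 and 115 CPM against 476, 50309, 1629 and 236 CPM ranged widely, with Scgb1a1 the most abundant and Foxj1 at 0. Of 4 lymphatic genes, 0 were called (median log2 ratio -0.84), with sums of 473, 574, 308 and 120 CPM led by Lyve1 and Prox1 at 0 by the rule. Red cell markers had 0 genes above the minimum level, with sums of 0, 19.5, 10.9 and 29.9 CPM, Hba-a1 the most abundant and Alas2 and Slc4a1 among those at 0. Of 14 genes of dividing cells, 1 was lower, Stmn1, and the list summed to 535, 455, 457 and 314 CPM against 3652, 646, 630 and 562 CPM, so library 1 of the other capillary cells stood apart. The median of this list (log2 ratio -4.07) includes genes that can have passed the minimum level through that library alone and is not read further. Mki67 had a UMI in 2 of the 262 cells and Top2a in 0, which by a limit of 3 counts allows a share of cells with a UMI of Top2a of up to 1.15% and sets no limit on cells that express it. Among the 88 cells without the 4 genes, 2 of 9 tested leukocyte markers, 2 of 5 mesenchyme markers, 6 of 7 alveolar type 2 and airway markers, 3 of 4 lymphatic genes and 5 of 13 genes of dividing cells were lower than in other capillary cells. Genes of these lists can have passed the minimum level through the other capillary cells alone. For airway genes that can be library 2 alone, and for dividing genes library 1 alone. These counts are therefore not read further.

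Within the aerocyte-like cells, the genes that differed most between libraries were mostly genes of other cells. Scgb1a1 and Sftpc have been given above. Sftpa1, Cxcl15 and Lyz1, all made by alveolar type 2 cells, had 646, 157 and 266 CPM in library 2 and at most 51.3 CPM in the others. Fabp4, a fatty acid binding protein of capillaries and macrophages, had 965, 274, 1342 and 0 CPM in aerocyte-like cells and 0, 121, 48.5 and 16.9 CPM in other capillary cells, and 3.84 CPM in the 88 cells without the 4 genes against 1277 CPM in the 94 cells with 8 or more UMIs. The heat shock gene Hspa1b had 0, 23.7, 6.22 and 254 CPM, against 28.0, 9.77, 14.8 and 50.6 CPM in other capillary cells, and has a near-identical copy, so its reads may be split. Ccl21a, a lymphatic chemokine gene listed among close copies, had 0, 274, 1.55 and 4.98 CPM. With no library assigned to a treatment, these differences cannot be told apart from differences between mice, treatments or preparations.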

How the data were processed

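The deposited values are whole-number UMI counts per gene and barcode, in 1 matrix of 31053 genes, which the authors made with Cell Ranger 3.1.0 (per the file header) and its STAR aligner on mm10 (per the submitters' processing notes), with reads down-sampled between libraries. The labels and the study's methods name different versions of the 10x kit. All 7 libraries lie in the matrix as barcode suffixes. Its barcodes were a set chosen before deposit, with exactly 6000, 3000, 5000 and 5000 in libraries 1, 4, 5 and 6, by a step not given in the sources used here, and the counts beyond the down-sampling were not scaled. Total UMIs were 50552002, 79439569, 47364075 and 34606626 in libraries 1, 2, 3 and 7.

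Here, UMIs were summed per library and class, divided by the class total and scaled to CPM. Genes with a mean of at least 10 CPM over both classes were tested for a 2-fold difference, leaving out the 8 genes of the rule. Gene positions came from GENCODE M21 (GRCm38), which held 31011 of the genes. The genes named are those of 31 lists, the 15 of largest and the 15 of smallest ratio, and the 10 that varied most between libraries, of which a few are not reported here. The members, the lists and the ranges of the 4 general capillary genes were chosen with earlier results of these data known. No doublet filter was applied, and Scrublet at an expected rate of 5% (scanpy 1.11.5) was an alternative. Python 3.11.15, numpy 2.4.6, scipy 1.17.1, pandas 2.3.3 and matplotlib 3.10.9 were used. On simulated counts over 31053 genes for the comparison with other capillary cells, 97.5% of 200 genes changed 4-fold and 0.436% of unchanged genes were called. The simulated counts held counting error only, with the same profile in both classes of a library apart from the changed genes. They had no spread between cells, so 0.436% is not a rate of false calls in the data. Intervals, those of plotted zeros included, are exact Poisson or binomial at 95%, and a limit of 3 counts served for folds against a class at 0, for the level a library can resolve and for Top2a.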

Additional observations from a re-analysis of the deposited data

How the results depend on the processing

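No paired analysis was possible because the labelled groups, to which replicate numbers belong, were not compared. Both classes of cells lie in each library, so a comparison of them paired by library could have been tested, and no such test was run. The share of aerocyte-like cells, 20.7%, was 29.5% with a mitochondrial limit of 5%, 17.3% with at least 2 UMIs of Ednrb, 17.9% among cells of 2000 to 10000 UMIs, 14.8% after thinning to 2000 UMIs, 6.95% for the 88 cells without the 4 general capillary genes (an alternative added after seeing the data), and 19.1% to 22.8% without 1 library. The 429 genes higher than in other capillary cells became 651 at the mitochondrial limit of 5% (364 shared), 736 for the 88 cells (371 shared) and 823 for these without library 1, 199 with a minimum of 50 CPM, 904 at a fold of 1.5, 196 at a fold of 3, and 410 to 502 without 1 library. The 415 lower genes became 709 at the limit of 5% (331 shared), 668 among cells of 2000 to 10000 UMIs (348 shared), 1047 for the 88 cells (342 shared) and 960 for these without library 1, 703 with no minimum, 158 with a minimum of 50 CPM, 847 and 137 at folds of 1.5 and 3, and 405 to 554 without 1 library. Against Vwf cells, a minimum of 50 CPM gave 193 higher and 154 lower genes in place of 361 and 451, and leaving out 1 library gave 338 to 435 and 430 to 548. The cause of these shifts was not tested, apart from the narrower or wider gene choice of the minimum and the fold. Among 576 values of 72 named genes under 8 alternatives, 0 were marked as changed in direction. Only called genes could be marked so, and a call already required the same direction in libraries 2, 3 and 7. This 0 was therefore largely fixed in advance and is not read as support. Sizes moved beyond counting error for 43 of the 72 genes among cells of 2000 to 10000 UMIs, 48 for the 88 cells, 23 with UMIs summed over libraries and 16 to 21 without 1 library. Among cells of 2000 to 10000 UMIs, 22 called ratios moved by more than 1.5 times, 19 of them further from 1 and 3 closer, the latter Ncam1, Racgap1 and Scgb3a1 (24.0-fold to 3.16-fold lower). Ncam1 and Racgap1 had 0 UMIs in 1 of the classes, so their ratios are set by a floor and their move is not read. Library 1, with 18 cells and 162711 UMIs, and library 7, with 20 cells and 200657 UMIs, limit the depth, since 3 counts there equal 18.4 and 14.95 CPM.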
